A study of Bos taurus with 2 samples.

Results

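Clusters 6 and 11 of cultured bovine satellite cells had the highest summed levels of S phase genes among 15 clusters, and they differed in MYOD1. The members are all cells of these clusters, and each cell's cluster was deduced from the deposited cluster averages. Of 19096 cells in all, 1575 belonged to cluster 6 and 845 to cluster 11, or 2420 together. The pair was set side by side because its S phase levels were alike and its MYOD1 levels were not, so the summed S phase level and the MYOD1 level are described here without a test.

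The cells came from the skeletal muscle of 1 male Holstein calf aged 2 weeks and were cultured for 1 week in DMEM with fetal bovine serum, a growth medium. From the same cells 2 libraries were prepared with the 10x Genomics 3′ kit, called replicates 1 and 2, and no treatment was given. In this kit each captured RNA is labelled with the barcode of its cell and with a random tag, the unique molecular identifier (UMI), and distinct UMIs are counted. With 1 animal and 1 culture, each p-value below measures only the spread between these library preparations for fixed clusters, and since the clusters were formed from the same counts, it is no independent evidence that the clusters differ.

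Satellite cells are the resident stem cells of skeletal muscle. Once activated they become dividing myoblasts under the myogenic regulatory factors MYF5 and MYOD1, and later leave the cell cycle, turn on MYOG and the genes of the contractile apparatus, and fuse. In S phase a cell copies its DNA, which needs the MCM helicase, the sliding clamp PCNA, DNA polymerases and the enzymes of nucleotide synthesis. MYOD1 binds E-box sites as a dimer with E proteins, and ID proteins and Notch signalling hold it back.

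Both clusters were present in similar shares in the libraries. Cluster 6 had 827 cells in replicate 1, or 8.32% of the library (exact binomial 95% interval 7.79 to 8.88%), and 748 cells in replicate 2, or 8.17% (7.62 to 8.75%). Cluster 11 had 446 cells (4.49%) and 399 cells (4.36%). The median depth per cell was 17566 and 18385.5 UMIs in cluster 6 and 17338.5 and 17886 UMIs in cluster 11, and the cells of the 4 sums had median gene numbers from 3981 to 4134. Summed over cells, the depth was 16040758 and 15256911 UMIs for cluster 6 and 8089009 and 7482322 UMIs for cluster 11, so the latter's low genes carry more counting error. Cells called doublets, which hold the RNA of more than 1 cell, made up 14.3% and 16.4% of cluster 6 but 4.26% and 3.51% of cluster 11. Their part in the differences below was not tested, and values without them are given beside many of the results. Of 27 barcodes found in both libraries 7 had a cell in these clusters, and none had both its cells in the same cluster.

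Genes of S phase were at nearly the same level in both clusters. The 43 genes of an S phase list summed to 45.3 and 43.3 UMIs per 10000 UMIs in cluster 6 and to 46.7 and 44.7 in cluster 11 (44.3 ± 1.43 and 45.7 ± 1.35, SD, n = 2 libraries each). The ranges of the clusters overlapped, although within each library cluster 11 was slightly higher. The next cluster in order, cluster 9, stood at 33.7 ± 0.781. After every cell had been thinned to 10000 UMIs, the median cell held 48 and 47 S phase UMIs in cluster 6 and 47 and 45 in cluster 11. PCNA, the clamp that tethers polymerases to DNA, was at 4.3 and 4.09 UMIs per 10000 in cluster 6 and at 4.26 and 4.25 in cluster 11. MCM5, a helicase subunit, was at 2.6 and 2.61 against 2.7 and 2.64. RRM2, the ribonucleotide reductase subunit that limits the supply of deoxynucleotides, was at 2.5 and 2.31 against 2.86 and 2.53. The values of these genes lay close together, with log2 differences (cluster 6 minus cluster 11) of 0.04 for PCNA, 0.03 for MCM5 and -0.10 for RRM2.

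**Figure D1:**
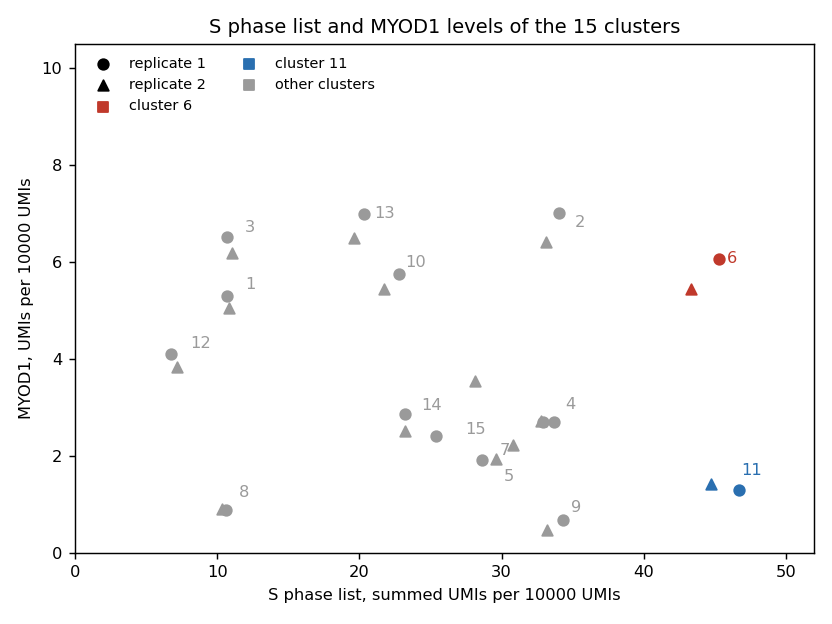
Each cluster has 2 points, 1 per library, at its summed S phase list level (x axis) and its MYOD1 level (y axis), both in UMIs per 10000 UMIs on linear axes. Clusters 6 and 11 lie apart from all others on the right, cluster 6 at a MYOD1 level of 6.07 and 5.44 and cluster 11 at 1.3 and 1.41.

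Across all genes, 16.5% of the 11041 tested were called by edgeR (quasi-likelihood test) at a Benjamini-Hochberg adjusted p under 0.05. Of these calls 966 genes were higher in cluster 6 (8.75% of those tested) and 852 were lower (7.72%). With the library as a block, which the shared libraries justify, the same test called 1827 genes higher and 1649 lower (31.5%). When plain UMI totals replaced the trimmed mean (TMM) scaling, the share of calls that were higher in cluster 6 went from 53.1% to 37.2%, with 720 higher and 1215 lower. Under plain totals the median log2 difference of all genes was -0.06 instead of 0.01, so the calls of small differences depend on the scaling. Since the pair was chosen for like S phase levels, the counts of replication genes are a description and nothing is read from their distance to this background. Of the 43 S phase genes, all tested, 4 were higher (POLD3, RAD51AP1, RPA2 and ATAD2, log2 0.20 to 0.31) and 0 lower, with a median of 0.01. Without TMM this was 2 higher and 4 lower, and without replicate 1 it was 0 higher and 1 lower. The blocked fit gave 9 higher and 5 lower. Of 23 licensing and helicase genes only MCM3 was called, at a log2 difference of 0.34, and the list's median was -0.01. Of 31 genes of the replication fork and nucleotide synthesis 2 were called, POLD3, a subunit of polymerase delta, and RPA2, which coats single-stranded DNA (median 0.05). For this list the block gave 6 higher and 5 lower, no TMM 1 and 4, and leaving out replicate 1 gave 0 and 1. In these 3 lists leaving out the doublets raised the counts, to 10 S phase genes, 2 licensing genes and 8 fork genes higher in cluster 6.

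MYOD1 separated the clusters in every library. It was at 6.07 and 5.44 UMIs per 10000 in cluster 6 and at 1.3 and 1.41 in cluster 11, with no overlap, a 4.45-fold difference (log2 2.15, SE 0.07). Among the 15 clusters cluster 6 was at rank 4 from the highest, and its mean of 5.75 ± 0.444 was within the library spread of cluster 10 (5.6 ± 0.224). Cluster 11 was at rank 13 with 1.35 ± 0.0764, between cluster 5 at 1.92 ± 0.0144 and cluster 8 at 0.892 ± 0.0137. Cluster 9, which carried the highest share of PDGFRA-positive cells of the 3 clusters examined per cell, was the lowest at 0.571 ± 0.151.

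MYOD1 was found in most cells of both clusters. With all UMIs, 97.8% of cluster 6 cells had at least 1 MYOD1 UMI (95% interval 97 to 98.5%). So did 68.5% of cluster 11 cells (65.3 to 71.6%) and 38.1% of cluster 9 cells (35.1 to 41%). Cluster 9 served as a level for comparison, called background below. RNA free in the suspension was not measured, so this level may include transcripts made in cluster 9. The median depths of clusters 6, 11 and 9 were 17967, 17669 and 23011 UMIs per cell. The intervals here and above cover counting error only. After thinning to 10000 UMIs per cell, which left out 17 cells of cluster 6 and 7 of cluster 11, the shares were 95.3%, 55.1% and 22.4%. Cluster 11 therefore lay above the background level and below cluster 6 at equal depth. The median thinned cell held 5 MYOD1 UMIs in cluster 6 and 1 in cluster 11, and the middle 80% of cells spanned 1 to 12 UMIs and 0 to 4 UMIs. The distributions overlapped, so cells with few MYOD1 UMIs were found in both clusters. Without doublets the thinned shares were 95.1%, 54% and 14.7% in the same order, and the log2 difference was 2.24.

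The other myogenic regulators did not all follow MYOD1. MYF5, which acts early in determination, was at 0.868 and 0.887 UMIs per 10000 in cluster 6 and at 1.08 and 1.05 in cluster 11. It was lower in cluster 6 by a small amount (log2 -0.21, SE 0.052, adjusted p = 0.0334), and the call was lost under DESeq2, after thinning, with all 15 clusters in 1 fit and without either replicate (adjusted p from 1.16e-04 to 0.331 over all alternatives). In thinned cells 49.7% of cluster 6 and 53% of cluster 11 had a MYF5 UMI, against 8.72% in cluster 9 (5.29% without doublets). MYF5 was thus above background in similar shares of both clusters. MYOG, the regulator of terminal differentiation, was at 0.822 and 0.618 in cluster 6 and at 0.104 and 0.115 in cluster 11 (log2 2.78, SE 0.17, adjusted p = 7.98e-05). Of thinned cells 21.3% had a MYOG UMI in cluster 6, 10.3% in cluster 11 and 11.9% in cluster 9. The share of cluster 11 was thus close to that of cluster 9. Without doublets these shares were 18%, 10.6% and 9.92%, and the MYOG difference was 2.11. PAX7 and PAX3, the paired-box factors of quiescent and embryonic progenitors, were near the limit of detection in both clusters, PAX7 at 0.00686 and 0.00524 against 0.00865 and 0.012, and PAX3 at 0.0106 and 0.0125 against 0.0136 and 0.00936. Neither was called, with log2 differences of -0.69 (SE 0.44) and 0.06 (SE 0.38).

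Of the 19 myogenic transcription factor genes 17 passed the filter on low counts, and 8 were higher and 1 lower in cluster 6, with a median log2 difference of 0.49. MYOD1, by which the pair was chosen, is among those higher, so the count is a description. MEF2D, a cofactor of MYOD1 and MYOG, was at 0.161 and 0.159 in cluster 6 and at 0.0383 and 0.0695 in cluster 11 (log2 1.65). MEOX2, a homeobox gene of somite and limb muscle, differed by 0.94 and MEF2A by 0.50. EYA1 and EYA2, coactivators of myogenic homeobox factors, differed by 0.71 and 1.55. PITX3 had 53 UMIs in cluster 6 and 1 in cluster 11, a ratio of 26.4 per UMI sequenced with an exact interval of 4.53 to 1061. SIX2 and SIX4, of the family that EYA proteins partner, were not called (log2 -0.24 and 0.14). DESeq2 called 5 of the list higher and 0 lower.

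The 12 genes with the largest positive differences at 1 UMI per 10000 or more, MYOD1 among them, included 6 genes of the contractile apparatus and its framework (ACTC1, TNNC2, KLHL41, NEB, MYLPF and DES). ACTC1, the cardiac alpha-actin that embryonic skeletal muscle also makes, was at 11.3 and 10.2 UMIs per 10000 in cluster 6 and at 1.29 and 1.26 in cluster 11 (log2 3.15, SE 0.062, adjusted p = 8.30e-07). CDKN1C, the cyclin-dependent kinase inhibitor p57, was at 3.03 and 3.11 against 0.456 and 0.33 (log2 3.02, SE 0.12, adjusted p = 9.96e-06). Each is an over 8-fold gap between the clusters, 8.85-fold for ACTC1 and 8.14-fold for CDKN1C. The libraries of a cluster lay close together, apart from CDKN1C in cluster 11 (0.456 and 0.33).

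FITM1, a protein of lipid droplet formation that is abundant in muscle, was at 1.17 and 1.1 against 0.155 and 0.166 (log2 2.89). TNNC2, the calcium sensor of fast fibres, was at 2.87 and 2.75 against 0.413 and 0.412 (log2 2.83). KLHL41, a kelch protein of sarcomere assembly, was at 1.43 and 1.26 against 0.241 and 0.191 (log2 2.70). These genes shared the same pattern, with no overlap between the clusters. NEB, the giant protein that lines the thin filament, differed by 2.68, and MYLPF, the regulatory light chain of fast myosin, by 2.47. DES, the muscle intermediate filament desmin, was at 4.08 and 3.78 against 0.932 and 0.762 (log2 2.28). DES was found in 86.7% of thinned cells of cluster 6, 45% of cluster 11 and 34.5% of cluster 9, so it too was widespread in cluster 6.

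The remaining leading genes were CD82, MX1 and a gene without a symbol. CD82, a tetraspanin on the surface of myogenic cells, was at 1.42 and 1.31 against 0.34 and 0.254 (log2 2.26). ENSBTAG00000027629, without a symbol in the deposited feature list, was at 1.42 and 1.29 against 0.316 and 0.275 (log2 2.26). MX1, an interferon-induced GTPase, was at 1.3 and 1.17 against 0.304 and 0.295 (log2 2.11), and it closed the series of 12, with IGF2 next at 1.89. Leaving out doublets lowered MYLPF to 1.77, ACTC1 to 2.81 and CDKN1C to 2.71 and left KLHL41 at 2.71 and NEB at 2.69.

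**Figure D2:**
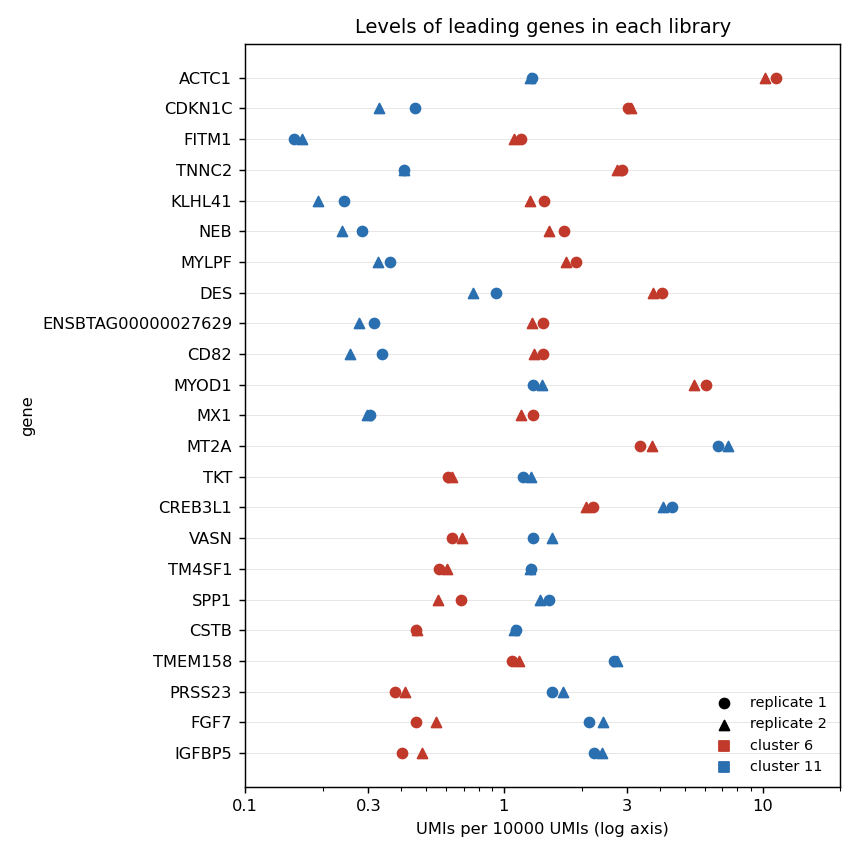
Levels of leading genes (y axis) in UMIs per 10000 UMIs on a log axis (x axis), with 1 point per cluster and library. In every row the points of cluster 6 and of cluster 11 lie apart, from 11.3 and 10.2 against 1.29 and 1.26 for ACTC1 at the top to 0.403 and 0.484 against 2.24 and 2.4 for IGFBP5 at the bottom.

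Muscle structure genes as a list followed the same direction. Its 45 genes summed to 31.7 and 30.3 UMIs per 10000 in cluster 6 and to 10.2 and 11 in cluster 11. The mean of cluster 11 (10.6 ± 0.55) was the lowest of all 15 clusters but within the library spread of cluster 9 (10.9 ± 0.621). Of the 29 members that passed the filter, 20 were higher in cluster 6 and 0 were lower, with a median log2 difference of 1.66. The other 16 were too low to test, among them SMPX and TCAP with no UMI in either cluster. SGCA, a sarcoglycan of the dystrophin complex, was at 0.708 and 0.75 against 0.135 and 0.107 (log2 2.65). TNNC1, the slow and cardiac troponin C, was at 0.521 and 0.49 against 0.108 and 0.11 (log2 2.28). MYH3, the embryonic myosin heavy chain, was at 0.236 and 0.18 against 0.063 and 0.0642 (log2 1.77), and ACTA1, the actin of mature fibres, at 0.112 and 0.11 against 0.0816 and 0.0642 (log2 0.67). ACTA1 was thus near 0.1 UMI per 10000 in both clusters. Per thinned cell the list gave a median of 19 and 20 UMIs in cluster 6 and 9 and 10 in cluster 11, and the upper quartile of cluster 6 reached 35 and 32. Without doublets 14 members were higher and the median was 1.33.

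Genes of the myoblast surface, adhesion and fusion were called in both directions. Of 20 tested 10 were higher and 3 lower (median 0.71). MYMK, the fusion protein myomaker, was low but higher in cluster 6, at 0.0436 and 0.0413 against 0.00618 and 0.00401 (log2 3.09, or 2.35 without doublets). CHRNA1, the alpha subunit of the muscle acetylcholine receptor, was at 0.582 and 0.564 against 0.131 and 0.134 (log2 2.18). FGFR4, a growth factor receptor of myoblasts, was at 0.703 and 0.72 against 0.236 and 0.202 (log2 1.76). Each of these had no overlap between the clusters. NCAM1, a neural cell adhesion molecule also found on myoblasts, was at 4.65 and 4.53 against 3.18 and 3 (log2 0.64), and ITGA7, a laminin receptor, differed by 0.78. The adhesion coreceptor CDON differed by 1.68 and JAM3 by 1.31. The lower genes were CDH2 (N-cadherin, -1.15), SDC3 (-0.76) and FGFR1 (-0.44). Without replicate 2 the list had 1 lower member.

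Notch genes were called in both directions. Of the 13 tested 7 were higher and 2 lower in cluster 6 (median 0.62). Among the ligands DLL1 was higher, at 0.29 and 0.286 against 0.0779 and 0.0789 (log2 1.94), and JAG2 as well (1.25), whereas JAG1 was lower, at 0.0324 and 0.0452 against 0.187 and 0.155 (log2 -2.08). The receptors NOTCH1 and NOTCH2 were higher by 0.87 and 0.62 and the DNA-binding partner RBPJ by 0.68. Of the target repressors HEYL was higher, at 0.34 and 0.391 against 0.151 and 0.114 (log2 1.52), HES1 was higher by 0.36 and HEY1 was lower at -0.55. Without replicate 1 the list had 3 higher members and the JAG2 call was lost (adjusted p = 0.0785), and without replicate 2 it had 5 higher and 1 lower.

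The ID, E protein and related bHLH genes gave 7 higher and 5 lower of 19 tested, with a median of 0.00. TCF12, an E protein that pairs with MYOD1, was at 1.19 and 1.1 against 0.634 and 0.596 (log2 0.96), and TCF3 and TCF4 differed by 0.31 and 0.37. The ID proteins, which bind E proteins and keep them from DNA, were lower in 2 cases, ID2 at -0.44 and ID1 at 12 and 11.3 against 14.1 and 14.2 (log2 -0.22). TWIST1, a repressor of MYOD1 activity, was at -0.58, and BHLHE40 at -0.71. The TWIST1 call was lost without either replicate (adjusted p = 0.177 and 0.114) and that of BHLHE40 without replicate 1 (0.0527). MSC, or musculin, was higher by 0.58. The E proteins named here were thus higher, and ID1 and ID2 lower, in the cluster with more MYOD1, but the list as a whole leaned neither way. Without TMM it had 6 higher and 7 lower members. Without replicate 1 the list had 4 higher and 4 lower members, and without replicate 2 it had 6 and 2.

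Among regulators of the cell cycle CDKN1C had the widest gap. Of all genes tested 966 of 11041 were higher in cluster 6 (8.75%). This was 895 of 10771 without doublets and 1827 of 11041 with the library as a block. Of 15 tested genes of kinase inhibitors, the retinoblastoma family and E2F factors 4 were higher and 0 lower in cluster 6 (median 0.21), or 6 and 0 without doublets (median 0.31) and 7 and 0 with the library as a block. Beside CDKN1C these were CDKN1A, the inhibitor p21, at 0.867 and 0.789 against 0.482 and 0.481 (log2 0.85), RB1 at 0.211 and 0.217 against 0.134 and 0.154 (log2 0.64) and CDKN2C, whose small difference of 0.31 was not called without either replicate (adjusted p = 0.0916 and 0.0942), without TMM, under DESeq2, after thinning or with all 15 clusters in 1 fit. CDKN1C was uneven among cells. Of thinned cells 57.2% had a CDKN1C UMI in cluster 6, 26.8% in cluster 11 and 36.3% in cluster 9, and in cluster 6 the median cell had 1 UMI and the 90th percentile was 8. The share of cluster 11 was thus not above that of cluster 9, also without doublets (26.5% and 31.2%). Whether the share of cluster 11 comes from free RNA was not tested. Without doublets 52.8% of thinned cluster 6 cells had a CDKN1C UMI, and the 90th percentile was 6. CDKN1B and E2F1 were not called, with log2 differences of 0.13 and 0.21. Of 15 cyclins, kinases and phosphatases 2 were higher, beside 8.75% of all genes tested, so little is read from this count. Both were D cyclins, which act in G1. CCND2 was at 0.845 and 1.15 against 0.549 and 0.628 (log2 0.82), a call lost when either replicate was left out, and CCND3 at 0.918 and 1.08 against 0.639 and 0.58 (log2 0.78). The median of this list was 0.09, and without doublets or with the library as a block 5 of its members were higher. CCNE1, the cyclin of S phase entry, was at 0.152 and 0.147 against 0.126 and 0.118 and was not called (log2 0.36, adjusted p = 0.0681).

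Genes of G2 and M phase tended upward in cluster 6. The list of 54 genes summed to 65.6 and 62.9 UMIs per 10000 in cluster 6 and to 59.3 and 57.5 in cluster 11, both far under the 155 ± 3.54 of cluster 2. Of the 54 members 14 were higher and 0 lower (median 0.10), or 10 and 3 without TMM, and 6 and 0 without replicate 1. JPT1 was at 4.46 and 4.49 against 3.05 and 3.07 (log2 0.61), UBE2C, which loads ubiquitin for the anaphase-promoting complex, at 3.93 and 3.74 against 2.68 and 2.64 (log2 0.59), and HMGB2, a chromatin protein, at 5.63 and 5.32 against 4.12 and 3.92 (log2 0.51). MKI67, the proliferation antigen, was higher by 0.26, and TOP2A, at 2.02 and 1.7 against 1.99 and 1.59, was not called. The median thinned cell held 60 and 59 UMIs of this list in cluster 6 and 53 and 50 in cluster 11.

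The insulin-like growth factor system differed at its ligand and its binding proteins. IGF2, the ligand myoblasts make themselves, was at 9.27 and 11.7 UMIs per 10000 in cluster 6 and at 2.58 and 3.31 in cluster 11 (log2 1.89, SE 0.14, adjusted p = 1.53e-04). IGFBP3 was at 2.96 and 2.83 against 0.859 and 0.85 (log2 1.82). IGFBP5 went the other way, at 0.403 and 0.484 against 2.24 and 2.4 (log2 -2.33, SE 0.088, adjusted p = 9.96e-06), and so did IGFBP4 (-0.67) and IGFBP6 (-0.59). In all 3 of 9 tested members were higher and 3 lower, IGF2R being the third higher one at 0.28 (median 0.03). IGF1 had at most 0.000655 UMIs per 10000 in any of the 4 sums.

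The genes with the largest negative differences, which were those higher in cluster 11, were led by secreted factors. After IGFBP5 came FGF7, a growth factor of mesenchymal cells, at 0.458 and 0.545 in cluster 6 and 2.13 and 2.42 in cluster 11 (log2 -2.12, SE 0.096). PRSS23, a secreted serine protease, was at 0.379 and 0.415 against 1.53 and 1.69 (log2 -1.96). No library of cluster 6 reached a library of cluster 11 in any of these genes. SPP1, osteopontin, differed by -1.15, VASN, a binder of TGF-beta, by -1.04 and TM4SF1, a surface protein, by -1.06. The cell-bound or internal members of this set were TMEM158 (-1.22), the protease inhibitor CSTB (-1.20), the transcription factor CREB3L1, which drives collagen secretion (-0.94), transketolase TKT (-0.94) and the metallothionein MT2A, at 3.35 and 3.75 against 6.75 and 7.38 (-0.93). LGALS3 followed just outside at -0.88.

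In the myostatin, activin and TGF-beta pathway 7 of 22 tested members were lower in cluster 6 and 1 was higher (median -0.29). The ligand TGFB3 was lower by a log2 of -1.82 at very low levels (0.00436 and 0.00459 against 0.0136 and 0.02). LTBP2, a matrix protein of the latent TGF-beta binding protein family, was at 0.134 and 0.179 against 0.312 and 0.281 (-0.86). FST, the activin and myostatin antagonist follistatin, was at 0.243 and 0.193 against 0.409 and 0.321 (-0.68). The receptor TGFBR2 was the higher one, at 0.48. The TGFB3 and FST calls were lost without either replicate, and the list then had 3 lower members without replicate 1 and 2 without replicate 2. The median without doublets was -0.46.

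Matrix genes leaned toward cluster 11, and the most abundant collagens moved little. Of 17 collagen genes tested 10 were lower and 2 higher in cluster 6 (median -0.55). COL6A1 and COL6A2, chains of the collagen VI that surrounds satellite cells, were at 0.358 and 0.338 against 0.791 and 0.704 (log2 -1.04) and at 0.721 and 0.678 against 1.27 and 1.31 (log2 -0.82), and COL6A3 differed by -1.66 at low levels. COL1A1 was at 21.8 and 21.3 against 25.1 and 24.7 (log2 -0.15), and COL1A2 at 37.9 and 38.5 against 34.4 and 34.8 (log2 0.21). COL11A1 was higher as well, at 0.773 and 0.735 against 0.52 and 0.466 (log2 0.67). The whole list summed to 97.6 and 98.1 against 104 and 103 UMIs per 10000, and the type I chains made up most of it. Without doublets 11 collagens were lower and 1 was higher, and without replicate 1 the COL6A3 call was lost (log2 -1.48, adjusted p = 0.108).

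Of 24 proteoglycans, matricellular and elastic fibre genes, all tested, 9 were lower and 7 higher (median -0.32). The lower ones included VCAN, the large proteoglycan versican, at 0.337 and 0.382 against 0.805 and 0.727 (log2 -1.03), PRELP (-0.75), DCN, at 4.71 and 4.75 against 7.43 and 7.18 (-0.56), FBN1 (-0.50) and FN1 (-0.47). THBS1, thrombospondin 1, was higher at 4.92 and 5.18 against 2.67 and 2.71 (log2 0.97), as were FBLN1 (0.74), ELN (0.54), CYR61 (0.39) and SPARC (0.29). The FBLN1 call was lost without either replicate (adjusted p = 0.217 and 0.267) and in 5 other alternatives, namely no doublets, no TMM, DESeq2, thinned cells and all 15 clusters in 1 fit.

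Markers of other cells that muscle holds were also examined. The 19 genes of fibro-adipogenic progenitors (FAPs), the mesenchymal cells that give rise to fat and scar in muscle, summed to 9.03 and 9.1 UMIs per 10000 in cluster 6, 13.5 and 13.3 in cluster 11 and 16.8 ± 0.211 in cluster 9. Of 13 tested 5 were lower in cluster 6 and 1 higher (median -0.56). PDGFRA, their defining receptor, was at 0.119 and 0.124 against 0.263 and 0.279 (log2 -1.09, SE 0.093, adjusted p = 3.26e-04). Its share of thinned cells was 10.6% in cluster 6, 23.4% in cluster 11 and 73.3% in cluster 9. PPARG, the adipogenic receptor, was at 0.00499 and 0.00787 against 0.0321 and 0.0307 (log2 -2.22, or -1.90 and not called without replicate 1), LUM at 2.07 and 1.98 against 3.27 and 3.18 (-0.61) and THY1 at -0.57. DLK1, an inhibitor of fat cell formation, was the higher one at 0.00997 and 0.017 against 0.00371 and 0.00267 (2.09), a call lost without TMM, with all 15 clusters in 1 fit and without either replicate. PI16 was at 0 in cluster 11 and had 1 library with a UMI in cluster 6. The mean sums of clusters 8, 7, 5 and 4 were above that of cluster 9 at 24.9, 18, 17.7 and 17, with cluster 11 next after cluster 9. The libraries of cluster 7 stood at 14.3 and 21.6 and those of cluster 4 at 17.2 and 16.7, against 16.9 and 16.6 in cluster 9. The paper counts cluster 7 as FAPs too, from its PDGFRA. Shares of cells with PDGFRA were computed for clusters 6, 11 and 9 only. Whether the summed list is particular to cells with PDGFRA was therefore not tested. The part of FAP RNA in the other differences was not tested.

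The 11 smooth muscle and pericyte genes summed to 6.07 and 6.35 in cluster 6 and 6.6 and 6.93 in cluster 11. Of 6 tested 2 were lower in cluster 6, CSPG4 (NG2) at 0.108 and 0.106 against 0.331 and 0.287 (log2 -1.47) and CNN1 (-0.68), with a median of -0.30, and RGS5 was at 0 in both clusters. Endothelial genes summed to 0.0293 and 0.0288 against 0.0346 and 0.0347, immune genes to 0.0312 and 0.0282 against 0.0284 and 0.0294 and glial genes to 0.335 and 0.294 against 0.302 and 0.313, nearly all of it S100B. None of the 4 members that could be tested, FLT1, CD68, LYZ and S100B, was called (log2 -1.22, 0.08, -0.02 and 0.08), although FLT1 was called lower with the library as a block and without TMM. TIE1, EMCN and ESAM of the endothelial, PTPRC, CD79A, AIF1 and ITGAM of the immune and FOXD3 and SOX10 of the glial markers were at 0 in both clusters, so the defining markers of these types were at or near 0.

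Some broad groups differed by small amounts. Of 82 cytosolic ribosomal protein genes tested 56 were higher in cluster 6 and 0 lower, with a median log2 difference of 0.17. Their sum was 2678 and 2676 UMIs per 10000 in cluster 6 and 2470 and 2471 in cluster 11, and RPS12, for example, was at 105 and 101 against 92.6 and 89.5 (log2 0.24). Without TMM 27 were higher, and without replicate 1 or replicate 2 it was 3 or 14. Of 19 genes of cholesterol synthesis and uptake 6 were higher, among them IDI1 (0.30), MVD (0.28) and their regulator SREBF2 (0.31), and 0 lower (median 0.14), or 1 and 3 higher without replicate 1 or replicate 2. Of 15 immediate early genes, which respond to growth signals and to handling within minutes, 3 were higher, ATF3 (0.68), FOS (0.43) and EGR1 (0.30), and 4 lower, DUSP1 (-0.84), IER3 (-0.79), JUNB (-0.62) and KLF6 (-0.23), with a median of -0.05. Without replicate 1 the calls of ATF3 (0.51), MVD (0.25) and SREBF2 (0.27) were lost.

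**Figure D3:**
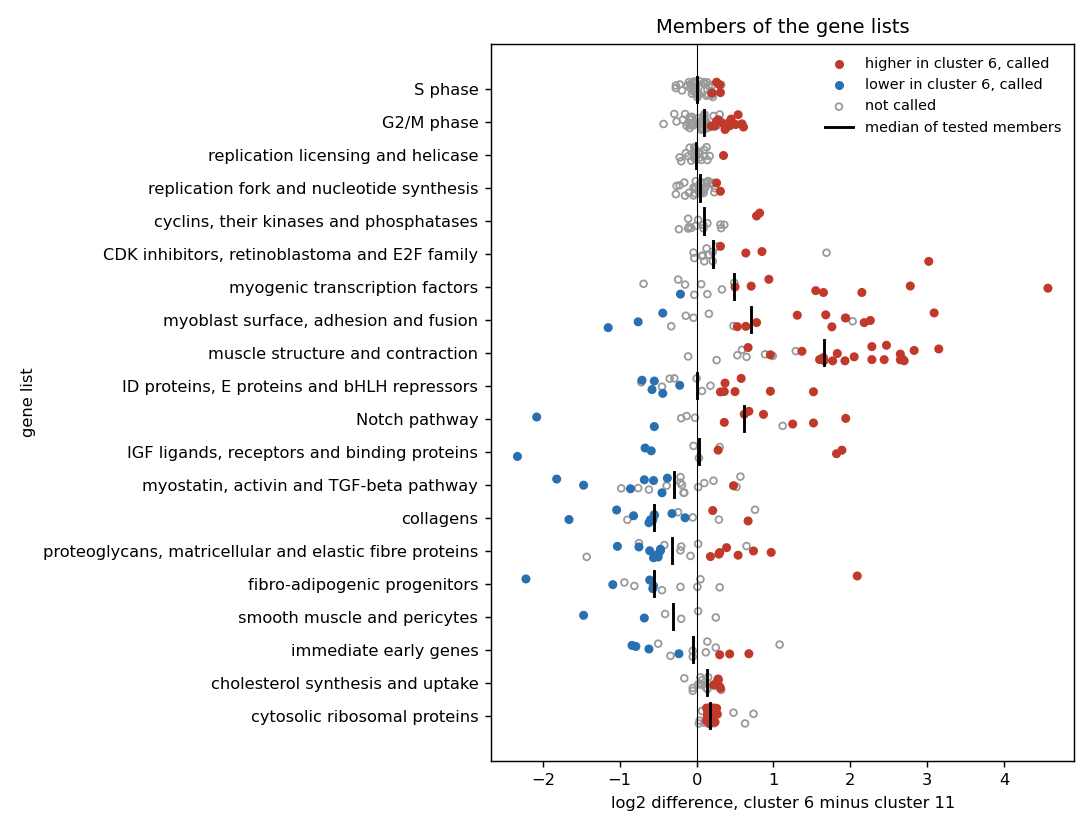
Log2 differences (cluster 6 minus cluster 11, x axis) of the tested members of each list with over 4 of them (y axis). Filled points passed the test, open points did not, vertical position within a row is random and black bars are medians, which run from -0.56 for fibro-adipogenic progenitors to 1.66 for muscle structure. The point at 4.57 is PITX3, with 1 UMI in cluster 11.

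Clusters 2 and 4, with the highest G2/M levels (155 ± 3.54 and 142 ± 4.2 UMIs per 10000), also differed in MYOD1, at 7.02 and 6.42 in cluster 2 and 2.7 and 2.72 in cluster 4. They served to ask what was particular to the S phase pair. Both pairs come from the same libraries but share no cells. In the pair 2 against 4, 30.9% of 11720 genes were called. Among the 11041 genes tested in both pairs 1256 were called in both, which is 69.1% of the 1818 calls in 6 against 11 and 35.3% of the 3561 calls in 2 against 4, and 1182 of them had the same sign. A test of the difference between the differences called 9.28% of 11720 genes, 630 more positive in the S phase pair (5.38%) and 458 more negative (3.91%). With the library as a block this was 23.4%.

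Several of the leading genes of cluster 6 had a wider gap in the S phase pair than in the G2/M pair. These genes were picked for their gap in the S phase pair, which favours that outcome. MYOD1 differed by 2.15 in the former and 1.31 in the latter, a difference of 0.84. The same held for CDKN1C (3.02 and 2.04, difference 0.98, adjusted p = 0.00395), FITM1 (2.89 and 1.83), KLHL41 (2.70 and 1.77), CD82 (2.26 and 1.32) and MX1 (2.11 and 0.95). CHRNA1 (2.18 and 0.90) and HEYL (1.52 and 0.17) were called in this test as well. ACTC1, MYLPF and MYOG were not, at 3.15 and 2.86, 2.47 and 2.78, and 2.78 and 3.01. Without doublets the difference between the pairs was -0.19 for ACTC1, -1.02 for MYOG (adjusted p = 0.182) and -1.11 for MYLPF (adjusted p = 0.0284), the last then called with the narrower gap in the S phase pair.

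CDKN1A and COL11A1 turned direction between the pairs. CDKN1A was higher in cluster 6 than in cluster 11 (log2 0.85) but lower in cluster 2 than in cluster 4, at 0.937 and 0.952 against 1.15 and 1.21 (-0.32), a difference of 1.16 (adjusted p = 1.02e-04). COL11A1 was at 0.834 and 0.804 in cluster 2 against 1.17 and 1.3 in cluster 4 (-0.59, after 0.67 in the S phase pair, difference 1.27).

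The 5 genes with the largest positive difference between the pairs set cluster 4 apart. ALDH1L2, a mitochondrial folate enzyme, was at 0.394 and 0.338 in cluster 6, at 0.309 and 0.35 in cluster 11, at 0.406 and 0.355 in cluster 2 and at 1.09 and 1.06 in cluster 4 (difference 1.72, SE 0.14, adjusted p = 1.79e-04). ATF5, a stress-induced transcription factor, was at 0.719 and 0.695, 0.618 and 0.617, 0.562 and 0.555, and 1.49 and 1.56 in the same order (difference 1.70). PSAT1, an enzyme of serine synthesis, was at 0.929 and 0.931, 0.737 and 0.893, 1.02 and 1.08, and 2.53 and 2.71 (difference 1.57). In each of them cluster 4 stood above the 3 other clusters, and clusters 6 and 11 lay closer together. PCK2, the mitochondrial form of the gluconeogenic kinase (1.55), and MKNK2, a kinase of the translation factor eIF4E (1.44), showed the same order. In cluster 6 against 11, ATF5 (log2 0.26) and PCK2 (0.34) were called higher. Both calls were lost in several alternatives, among them no doublets, no TMM, DESeq2 and thinned cells. ALDH1L2, PSAT1 and MKNK2 were called higher only in some alternatives, among them the library as a block.

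The 5 most negative differences included 3 genes of fatty acid synthesis. ACLY, which makes cytosolic acetyl-CoA from citrate, was higher in cluster 6 than in cluster 11 by 0.45 and in cluster 2 than in cluster 4 by 1.17. FASN, fatty acid synthase, was at 1.12 and 1.1 in cluster 6, at 1.32 and 1.26 in cluster 11, at 0.855 and 0.811 in cluster 2 and at 0.621 and 0.536 in cluster 4 (-0.16, not called, and 0.53). ELOVL6, a fatty acid elongase, was lower in cluster 6 by -0.55 and higher in cluster 2 by 0.27. The differences between the pairs were -0.72, -0.68 and -0.82. The other 2 were HNRNPA3, an RNA-binding protein (-0.80), and MT2A (-0.83), which did not pass the test between clusters 2 and 4.

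**Figure D4:**
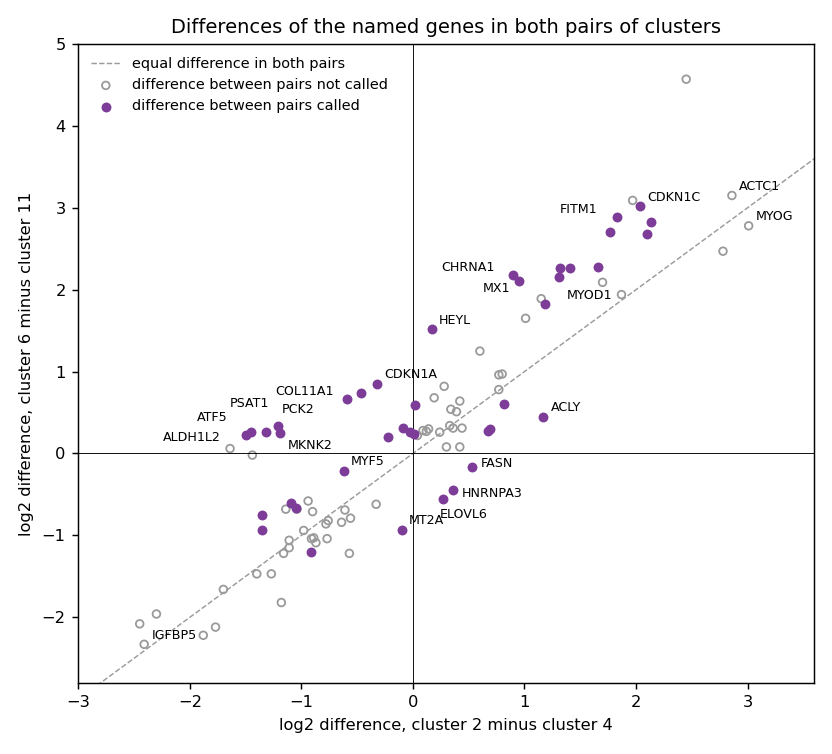
Log2 differences of the named genes in cluster 6 minus 11 (y axis) and in cluster 2 minus 4 (x axis). The dashed line marks equal differences, and filled points are genes for which the difference between the pairs passed the test, such as ALDH1L2 at 0.22 and -1.50 on the left and ACLY at 0.45 and 1.17 on the right.

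The neighbours of a cell, the 30 cells nearest to it in 10 principal components, show which clusters adjoin these. For cells of cluster 6, 76.5% of all neighbours lay in their own cluster, 6.87% in cluster 2 and 5.71% in cluster 11. For cells of cluster 11 it was 72.9% in their own, then 9.72% in cluster 6, 9.27% in cluster 5 and 5.23% in cluster 4. The clusters thus adjoined each other as well as clusters 2, 5 and 4. These shares are not scaled to cluster size, so a larger cluster can supply more neighbours. Clusters 2, 4, 5, 6 and 11 held 2119, 1768, 1641, 1575 and 845 cells. In replicate 2 cluster 6 had 6.17% of its neighbours in cluster 2 and 6.16% in cluster 11, and cluster 11 had 10.2% in cluster 5 and 8.45% in cluster 6, whereas in replicate 1 cluster 6 came first for cluster 11 with 10.9%. Cluster 9 made up 0.112% and 0.323% of the neighbours. When S phase and G2/M list genes were left out of the components, cluster 6 had 13.6% of its neighbours in cluster 2 and 4.04% in cluster 11. Cluster 11 had 10.2% in cluster 5, 7.63% in cluster 4 and 7.46% in cluster 6.

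**Figure D5:**
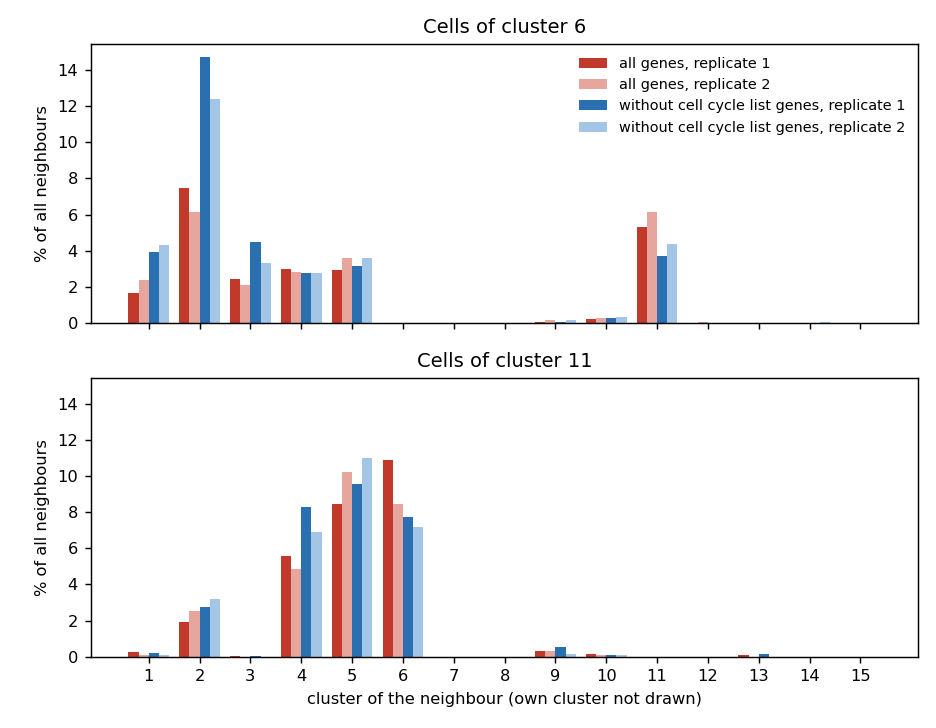
Share of all 30 nearest neighbours (y axis, %) that lie in each other cluster (x axis) for cells of cluster 6 (top) and cluster 11 (bottom), per library, with all genes and without cell cycle list genes. Cluster 2 has the largest outside share for cluster 6, with 13.6% over both libraries once the cell cycle genes are left out. Clusters 4, 5 and 6 have the largest for cluster 11. Shares are not scaled to cluster size (2119 cells in cluster 2, 845 in cluster 11).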

How the data were processed

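Per the labels and the paper's methods, the authors processed both libraries with Cell Ranger 3.0.2 on the ARS-UCD1.2 assembly and combined them after thinning to equal mapped reads per cell. What they deposited are whole-number UMI counts for 21867 genes in 19096 cells, with no doublet removal described. The authors also deposited average UMI signal per cluster, scaled to a common total of 14889 UMIs per cell, beside log2 fold changes and p-values of their own comparisons, which were not used. The averages convert to whole UMI sums, and the only assignment found that gives them (0 of 252240 gene and cluster sums differed) set each cell's cluster. The library is the number that ends the barcode.

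UMIs were summed per library and cluster. The sums were compared with edgeR 4.0.16 (R 4.3.3), by its quasi-likelihood test with TMM, filterByExpr and Benjamini-Hochberg adjustment, 2 sums against 2 for cluster 6 against 11 and 8 sums for clusters 2, 4, 6 and 11. A level is UMIs per 10000 UMIs of a sum, and a fold or log2 difference comes from the fit. The sums of a library share its preparation. Over 9214 genes with 20 or more UMIs the ratios of the libraries (log2, 1 over 2) had a correlation of 0.44 between clusters 6 and 11, and over 10144 genes of 0.517 between clusters 2 and 4, so the libraries pair the sums, and counts with the library as a block stand beside those without. On simulated counts with 200 genes changed 3-fold the test recovered 95.5% of them for cluster 6 against 11 over 10897 genes. Of its calls 12.9% were false. For the difference between pairs it recovered 77% over 11602 genes, with 7.93% of its calls false. The simulated counts were drawn independently, without the pairing by library, so these rates need not hold for the real sums.

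The clusters, gene lists and named genes were chosen with earlier results of these data known. Named were MYOD1, MYF5, MYOG, PAX7, PAX3, DES and PDGFRA; the 12 genes in each direction with the largest called difference of the same sign in both libraries at 1 UMI per 10000 or more; up to 4 called members of each list, or tested ones where none was called; and the 5 in each direction with the largest called difference between pairs. Other genes in the text are list members chosen after their values were seen, and results of a few genes are not reported here. A list of mitochondrially encoded genes matched 0 names of the feature list. Doublets were called with Scrublet in scanpy 1.11.5 with 8.0% expected. The threshold it set was 0.743 in replicate 1, with 0 cells called, and 0.272 in replicate 2, so 0.272 was used for both, a choice made after this was seen, giving 5.86% and 6.24% doublets. Alternatives were DESeq2 1.42.0, RLE factors, no TMM, no filter, no doublets, cells of 2000 UMIs or more (the same cells here), cells thinned to 10000 UMIs, all 15 clusters in 1 fit and leaving out each replicate. No sequences are shown, since a genome of the files' assembly was not used here.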

Additional observations from a re-analysis of the deposited data

Results flagged for a closer look

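The genes below passed the test of the difference between the pairs, (6 minus 11) minus (2 minus 4), with edgeR at an adjusted p under 0.05, which 9.28% of all genes tested did. Among the myogenic and muscle genes the log2 values were 0.41 for MYF5, 0.61 for DES, 1.06 for FITM1, 0.70 for TNNC2, 0.93 for KLHL41, 0.58 for NEB, 0.94 for CD82 and 1.28 for CHRNA1. For MYF5 the gap was narrower in the S phase pair, since it was lower in cluster 6 by -0.21 and lower in cluster 2 by -0.62.

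Of the cell cycle genes CDKN1C had 0.98 (0.55 without doublets), CDKN1A 1.16, CDKN2C 0.39, UBE2C 0.58, ATAD2 0.42 and JPT1 -0.21. Of signalling and secreted factors HEYL had 1.35, IGFBP3 0.64 and IGFBP4 0.38, and of matrix genes COL11A1 had 1.27, FBLN1 1.2, PRELP 0.60 and LUM 0.48. CREB3L1 had 0.41, CSTB -0.29, MX1 1.15 and ENSBTAG00000027629, which has no symbol, 0.85.

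In amino acid and related metabolism the values were 1.72 for ALDH1L2, 1.70 for ATF5, 1.57 for PSAT1 and 1.55 for PCK2, with 1.44 for the kinase MKNK2. These 5 were between 1.29 and 1.58 without doublets. In lipid metabolism they were -0.82 for ELOVL6, -0.72 for ACLY, -0.68 for FASN, -0.38 for IDI1 and -0.40 for MVD. The remaining values were -0.83 for MT2A, -0.80 for HNRNPA3, 0.30 for RPL22L1 and 0.23 for RPS12. Without either replicate the calls of MYF5, CSTB, CREB3L1, JPT1, CDKN2C, IGFBP4, FBLN1, IDI1, MVD, RPL22L1 and RPS12 were lost, and without replicate 2 those of HEYL and PRELP, each with its direction kept. Without doublets the calls of DES (0.43), TNNC2 (0.31), IGFBP4 (0.29) and PRELP (0.51) were lost, and MYLPF was called at -1.11.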

How the results depend on the processing

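With the library as a replicate block 1827 genes were higher and 1649 lower in cluster 6, and DESeq2 called 590 and 503. Leaving out a replicate gave 487 to 600 higher and 429 to 473 lower, with lone sums assumed to vary like clusters 2 and 4. For the difference between pairs the block gave 1457 positive and 1284 negative calls, DESeq2 354 and 270, no TMM 862 negative, thinned cells 250 negative, and leaving out a replicate 231 to 232 positive and 59 to 122 negative. The block turned no direction. MYOD1 shares in thinned cells were 95.3% and 55.1%. Without cycle genes the shares of outside neighbours were 42.2% (cluster 6 in 2), 12.5% (6 in 11) and 25.7% (11 in 6).

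Of 98 named genes 65 kept direction and call for 6 against 11 under every alternative, and of 55 for the difference 28 did. Directions turned only where a gene was not called. For 6 against 11 these were PAX3 (-0.00 without TMM, -0.07 without doublets, 0.46 and -0.28 without replicate 1 or 2), LYZ (-0.55 and 0.19 without replicate 1 or 2) and S100B (-0.01 thinned, -0.05 and 0.22 without replicate 1 or 2). For the difference these were MYOG (-0.53 and 0.05 without replicate 1 or 2), PAX7 (-0.53 and 0.35), SPP1 (-0.14 and 0.06), ACTC1 -0.19 and IGFBP5 -0.24 (without doublets), TM4SF1 -0.01 (no TMM) and TKT (-0.02 without TMM, -0.00 without doublets, -0.00 and 0.09 without replicate 1 or 2). The cause of these changes was not tested. PAX7 had 19 UMIs in cluster 6 and 16 in cluster 11, so its values carry a large counting error.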

Other observations

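A list of 30 genes of the amino acid response and its transcription factor ATF4 differed more in the G2/M pair than in the S phase pair. It was assembled after the values above had been seen and so had no test of its own. All 30 were lower in cluster 2 than in cluster 4, as were 14.9% of all genes tested (median log2 -1.17, beside 0.01 for all genes), whereas 5 of the 29 tested were higher and 3 lower in cluster 6 against 11 (median 0.08). Without doublets this was 2 higher and 4 lower of 27 (median -0.02). For 24 of the 30 the difference between the pairs was called, each time positive (median 1.15), beside 5.38% of all genes tested. These include ALDH1L2, ATF5, PSAT1 and PCK2, named above for their positive differences, so the count is no separate evidence. ASNS, asparagine synthetase, was the member with the clearest gap in S phase, at 1.92 and 1.86 UMIs per 10000 in cluster 6 and 1 and 1.13 in cluster 11 (log2 0.89), and it was lower in cluster 2 than in cluster 4 by -0.42. ATF4 itself was at 4.6 and 4.49 in cluster 6 and 4.62 and 4.76 in cluster 11 (log2 0.02, not called) and differed by -0.65 in the G2/M pair. VEGFA, the endothelial growth factor, was lower in cluster 6 by -1.11 and in cluster 2 by -1.44. Not every member was highest in cluster 4. VEGFA was at 0.218 and 0.257 in cluster 11 and at 0.255 and 0.238 in cluster 4, and SHMT2 at 2.81 and 2.59 against 2.57 and 2.51.

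MX1 was the only gene called higher in cluster 6 among 11 tested genes of an interferon-stimulated list put together in the same way. Of the others 3 were lower in cluster 6, among them IFIT1 (-1.46) and ISG20 (-2.60), beside 7.72% of all genes tested. The median of the list was -0.18. A list of 20 genes of fatty acid synthesis was also assembled after the values were seen. In it 2 genes were higher in cluster 6, ACLY (0.45) and AGPAT2 (0.68), and 2 lower, ELOVL6 (-0.55) and FADS2 (-0.33). Of all genes tested 8.75% were higher and 7.72% lower. In cluster 2 against 4, 5 were higher and 1 lower, beside 16% and 14.9% of all genes. The difference between the pairs was called negative for 5, beside 3.91% of all genes, and positive for 0. These 5 include ACLY, FASN and ELOVL6, named above for their negative differences, so the count is no separate evidence.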
